A study of Mus musculus with 16 samples.

Results

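The genes described here are the matrix metalloproteinases (MMPs) *Mmp9*, *Mmp2*, *Mmp3*, *Mmp10*, *Mmp13*, *Mmp14* and *Mmp15* and the tissue inhibitors of metalloproteinases *Timp1*, *Timp2* and *Timp3*, chosen by symbol from a count table of 14474 genes. Of these 10 genes, 9 had a row in the table and passed the filter on low counts, and *Mmp3* is not analysed here. They were measured by RNA-seq in 16 libraries from immortalized mouse keratinocytes, with 4 replicates in each of 4 groups. MKα3− cells lack the α3 subunit of integrin α3β1, a receptor for the basement membrane protein laminin-332 (LN332), and MKα3+ cells are MKα3− cells into which human α3 was put back. Each line received either LN332 at 0.02 mg/mL or the same volume of its vehicle, PBS with glycine and NaN3, for 16 to 24 h. All 4 groups thus share the loss of mouse α3, growth on collagen-coated dishes and a low-calcium medium. Each genotype was 1 cell line, so an effect of α3 and any other difference between the lines cannot be told apart.

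MMPs are zinc-dependent proteases that are made as inactive proenzymes, are switched on by removal of a propeptide, and cut collagens, laminins, fibronectin, cell-surface receptors and growth factor precursors. TIMPs bind the active site of MMPs and block them, and TIMP-2 has a further role, since a complex of TIMP-2 with the membrane-anchored MMP-14 captures proMMP-2 at the cell surface for activation. In the epidermis, the stromelysins, collagenases and MMP-9 are known for their induction in keratinocytes at wound edges, where laminin-332 is the matrix under the migrating cells.

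Total counts were between 21735708 and 29338370 per library. The targeted gene did not check the labels: mouse *Itga3* stood at 259 ± 42.4 in MKα3− and 277 ± 46.8 in MKα3+ cells with vehicle, in CPM (read counts scaled to the TMM-adjusted library total; mean ± SD over 4 libraries each), with a log2 fold change (log2FC, MKα3+ over MKα3−) of 0.09 and limma-voom adjusted p of 0.694. The 10 keratinocyte markers summed to between 10374 and 24147 CPM per library. The 5 fibroblast markers measured summed to between 11.6 and 40.7 CPM, and the 4 endothelial markers measured to between 3.33 and 6.45 CPM. Among the macrophage and leukocyte markers, *Adgre1* set 3 libraries apart. *Adgre1*, which encodes the macrophage surface protein F4/80, was at 34.9 and 34.5 CPM in replicates 3 and 4 of MKα3+ cells with vehicle and at 35.2 CPM in replicate 4 of MKα3+ cells with LN332, against 0.106 to 10.4 CPM in the other 13 libraries. Results that may rest on these 3 libraries are therefore given with and without them. Leaving them out also leaves fewer libraries in the fit, so a call lost that way need not have rested on them.

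Promoter windows were read from RefSeq for GRCm38.p6 (equal to mm10), and 8 of the 10 genes matched, *Mmp9* and *Mmp2* not. The windows run from 250 bases before to 50 bases after the start. They were searched on both strands for the AP-1 motif TGAGTCA (in 5.2% of the 32851 windows of all genes), the TATA motif TATAAA (13.6%), the GC box GGGCGG (35.7%) and the ETS motif CAGGAAGT (3.33%). No match of a motif overlapped a match of another.

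The following promoter stretches are shown as examples of windows with a GC box (*Timp1* and *Mmp15*, members that differed between the lines) and of windows with an AP-1 and a TATA motif (*Mmp10* and *Mmp13* on chromosome 9, members with no called difference between the lines). *Mmp14* and *Timp3*, also with no called difference, hold GC boxes too, so these letters did not separate the members that differed. The stretches differ in length, and those of *Mmp10* and *Mmp13* are only the part of the window next to the start. All are printed from the plus strand, on which all 4 genes lie, and capitals mark the motif matches.
Timp1, chrX:20869916-20870165 (ETS motif, then a GC box on the reverse strand): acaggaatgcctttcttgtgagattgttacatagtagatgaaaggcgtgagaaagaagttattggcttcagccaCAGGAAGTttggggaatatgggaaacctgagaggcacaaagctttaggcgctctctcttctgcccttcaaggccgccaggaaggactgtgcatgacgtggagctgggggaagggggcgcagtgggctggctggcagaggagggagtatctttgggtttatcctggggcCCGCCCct
Mmp15, chr8:95352046-95352267 (GC box on the reverse strand): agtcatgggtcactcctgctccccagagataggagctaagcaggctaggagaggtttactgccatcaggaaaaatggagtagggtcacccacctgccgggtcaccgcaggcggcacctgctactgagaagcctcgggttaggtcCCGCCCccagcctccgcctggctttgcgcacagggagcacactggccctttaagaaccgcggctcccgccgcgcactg
Mmp10, chr9:7502262-7502341 (AP-1 motif, then TATA motif): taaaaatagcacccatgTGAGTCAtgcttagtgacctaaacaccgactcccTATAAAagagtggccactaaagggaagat
Mmp13, chr9:7272434-7272513 (AP-1 motif on the reverse strand, then TATA motif): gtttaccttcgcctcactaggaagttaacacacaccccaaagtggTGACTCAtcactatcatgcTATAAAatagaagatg

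The stromelysin and collagenase genes *Mmp3*, *Mmp10* and *Mmp13* each held 1 AP-1 motif and 1 TATA motif and no GC box. The AP-1 motif began 46 bases before the start in *Mmp3*, at -46, and at -63 in *Mmp10* and -35 in *Mmp13*. The TATA motif began at -7 in *Mmp3*, -29 in *Mmp10* and -16 in *Mmp13*. All these distances are from the RefSeq start, which was not checked against a measured start, so they may not be comparable between the genes. The windows of *Mmp14*, *Mmp15*, *Timp1*, *Timp2* and *Timp3* each held at least 1 GC box and neither an AP-1 nor a TATA motif. The ETS motif was found in the window of *Timp1*, beginning at -176. These matches describe letters in the windows and no binding was measured.

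**Figure D1:**
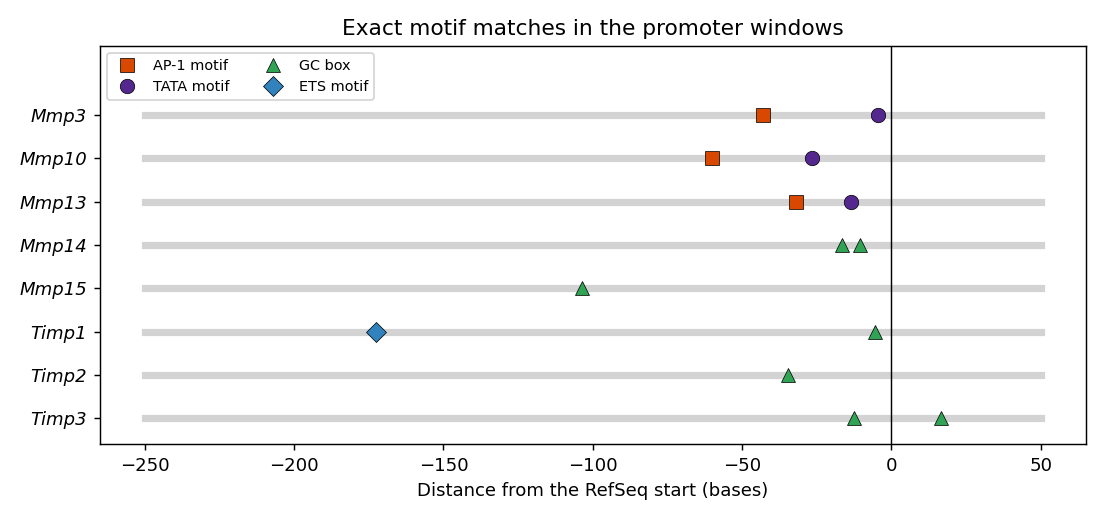
Exact matches of 4 motifs in the promoter windows of 8 genes, placed by distance in bases from the RefSeq start (vertical line at 0), with grey bars for the 300-base windows. The AP-1 and TATA motifs stand in *Mmp3*, *Mmp10* and *Mmp13*, and the GC boxes stand in the other 5 windows.

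Per length of exon, *Timp2* was the most abundant transcript of the family in all 4 groups. It was at 89.7 ± 8.53 CPM per kb (SD, n = 4) in MKα3− cells with vehicle and at 160 ± 26.1 CPM per kb (SD, n = 4) in MKα3+ cells with vehicle. *Timp1* was at 25.2 ± 3.67 and 54.1 ± 6.50 CPM per kb, and *Mmp14* at 24.5 ± 1.74 and 29.0 ± 5.39 CPM per kb, in the same groups. In MKα3− cells with vehicle *Timp1* (22.4 to 30.6 CPM per kb) and *Mmp14* (22.3 to 26.0) overlapped, whereas in MKα3+ cells with vehicle they did not, with *Timp1* between 48.7 and 63.1 and *Mmp14* between 21.5 and 34.3 CPM per kb. *Timp2*, *Timp1* and *Mmp14* made up 56.3 to 67.3%, 13.7 to 25.4% and 7.28 to 21.1% of the summed CPM per kb of the 9 genes in each library. The lengths are of GENCODE exons, whereas reads were counted per Entrez gene. For *Mmp14* the GENCODE exons run to base 54445364 and the RefSeq gene ends at 54442456. Its level per kb may therefore be too low, and its overlap with *Timp1* and these shares are uncertain.

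The remaining genes were lower on this scale. *Mmp15* came next with 2.84 ± 1.19 CPM per kb in MKα3− cells and 5.52 ± 0.694 in MKα3+ cells with vehicle (SD, n = 4 each), and *Mmp9* followed with 1.43 ± 0.878 and 2.51 ± 0.840 CPM per kb. These neighbours overlapped in MKα3− cells with vehicle and did not overlap in MKα3+ cells with vehicle. *Mmp2* was between 0.648 and 1.67 CPM per kb in the 16 libraries. *Timp3*, *Mmp13* and *Mmp10* lay lowest, with group means between 0.313 and 0.711 CPM per kb, and their ranges overlapped in all 4 groups.

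**Figure D2:**
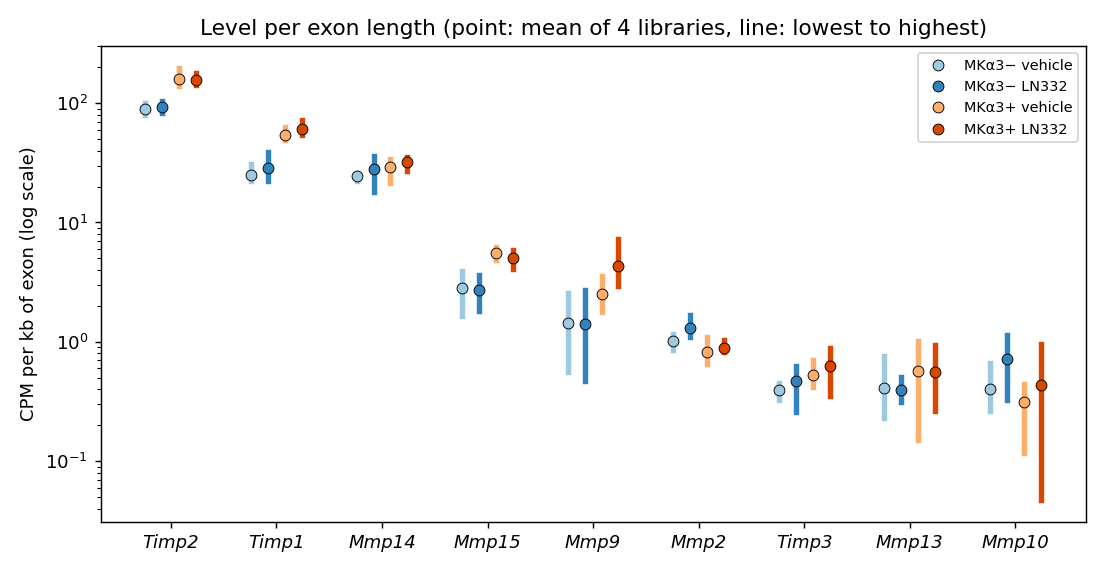
CPM per kb of exon on a log axis for the 9 genes in the 4 groups, with points for the means of 4 libraries and lines from the lowest to the highest library. *Timp2* is highest in every group, near 90 CPM per kb in MKα3− cells and near 160 in MKα3+ cells, and *Timp3*, *Mmp13* and *Mmp10* have means under 1.

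Restoration of α3 was addressed by comparing MKα3+ with MKα3− cells within each treatment. With vehicle, *Timp1*, *Timp2* and *Mmp15* were higher in MKα3+ cells, by 2.15-fold, 1.77-fold and 2.08-fold. With LN332 the same 3 genes were higher and *Mmp9* was 3.51-fold higher as well. No member was lower past the threshold in either treatment. The threshold was an adjusted p under 0.05 (Benjamini-Hochberg over all genes) with an absolute log2FC over 0.5, in limma-voom. With vehicle 3 of 9 members passed it, all higher, beside 18.5% of all genes tested (10.9% higher and 7.56% lower), and with LN332 4 of 9 passed, all higher, beside 20.6% of all genes (11.7% higher and 8.92% lower). The median log2FC of the members was 0.40 with vehicle and 0.36 with LN332, beside 0.01 over all genes in each. In bulk RNA, fewer cells with a transcript and less of it per cell cannot be told apart.

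*Timp1* (Entrez 21857, chrX:20870166-20874737, plus strand), the inducible secreted inhibitor that also binds proMMP-9, separated the lines fully. With vehicle its levels were 19.9, 21.1, 21.5 and 27.2 CPM in replicates 1 to 4 of MKα3− cells and 56.0, 48.5, 44.4 and 43.3 CPM in those of MKα3+ cells. With LN332 they were 19.7, 27.0, 20.6 and 34.5 CPM in MKα3− cells and 63.7, 55.6, 48.4 and 49.3 CPM in MKα3+ cells. Each of the 8 MKα3+ libraries was thus above each of the 8 MKα3− libraries. The log2FC was 1.10 (SE 0.15, adjusted p = 3.80e-05) with vehicle and 1.13 (SE 0.15, adjusted p = 2.65e-05) with LN332 from limma-voom. It was 1.23 and 1.18 when the 3 libraries high in *Adgre1* were left out.

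*Timp2* (Entrez 21858, chr11:118301061-118355411, minus strand), the inhibitor that also assists proMMP-2 activation by MMP-14, showed the same separation at a higher level. MKα3− cells with vehicle had 342, 313, 351 and 393 CPM, and MKα3+ cells with vehicle had 775, 546, 589 and 590 CPM. With LN332 the levels were 322, 334, 405 and 389 CPM in MKα3− cells and 704, 549, 620 and 584 CPM in MKα3+ cells. Replicate 1 was the highest of its group in MKα3+ cells under both treatments, and no MKα3+ library overlapped an MKα3− library. The log2FC was 0.83 (SE 0.12, adjusted p = 5.85e-05) with vehicle and 0.76 (SE 0.12, adjusted p = 1.20e-04) with LN332. These values were 0.90 and 0.78 when the 3 libraries high in *Adgre1* were left out.

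*Mmp15* (Entrez 17388, chr8:95352296-95374293, plus strand) encodes MT2-MMP, a membrane-anchored protease. With vehicle its levels were 21.3, 8.88, 20.3 and 10.8 CPM in MKα3− cells and 32.1, 33.9, 26.3 and 27.0 CPM in MKα3+ cells. With LN332 they were 18.6, 10.4, 19.6 and 9.78 CPM in MKα3− cells and 31.6, 28.5, 27.6 and 22.0 CPM in MKα3+ cells. MKα3− cells were spread in the same way under both treatments, with replicates 1 and 3 near 20 CPM and replicates 2 and 4 near 10 CPM, and still did not overlap MKα3+ cells. The log2FC was 1.06 (SE 0.25, adjusted p = 0.00433) with vehicle and 0.95 (SE 0.26, adjusted p = 0.0100) with LN332. With the same 3 libraries left out, it was 1.21 and 1.05.

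*Mmp9* (Entrez 17395, chr2:164940326-164955850, plus strand) encodes gelatinase B, which cuts denatured collagens and type IV collagen. With vehicle its levels were 9.09, 3.39, 1.98 and 5.73 CPM in MKα3− cells and 12.6, 6.74, 9.87 and 6.26 CPM in MKα3+ cells. These groups overlapped, since replicate 1 of MKα3− cells exceeded replicates 2 and 4 of MKα3+ cells, and the log2FC of 0.97 (SE 0.48, 95% interval -0.03 to 1.98, adjusted p = 0.141) missed the threshold. With LN332 the levels were 9.70, 3.74, 1.65 and 4.99 CPM in MKα3− cells and 25.9, 10.4, 14.2 and 11.1 CPM in MKα3+ cells. Here the groups did not overlap, and the log2FC was 1.81 (SE 0.47, adjusted p = 0.00692). The highest *Mmp9* library, replicate 1 of MKα3+ cells with LN332, had *Adgre1* at 0.924 CPM, and without the 3 libraries high in *Adgre1* the log2FC with LN332 was 1.94 (adjusted p = 0.0152).

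**Figure D3:**
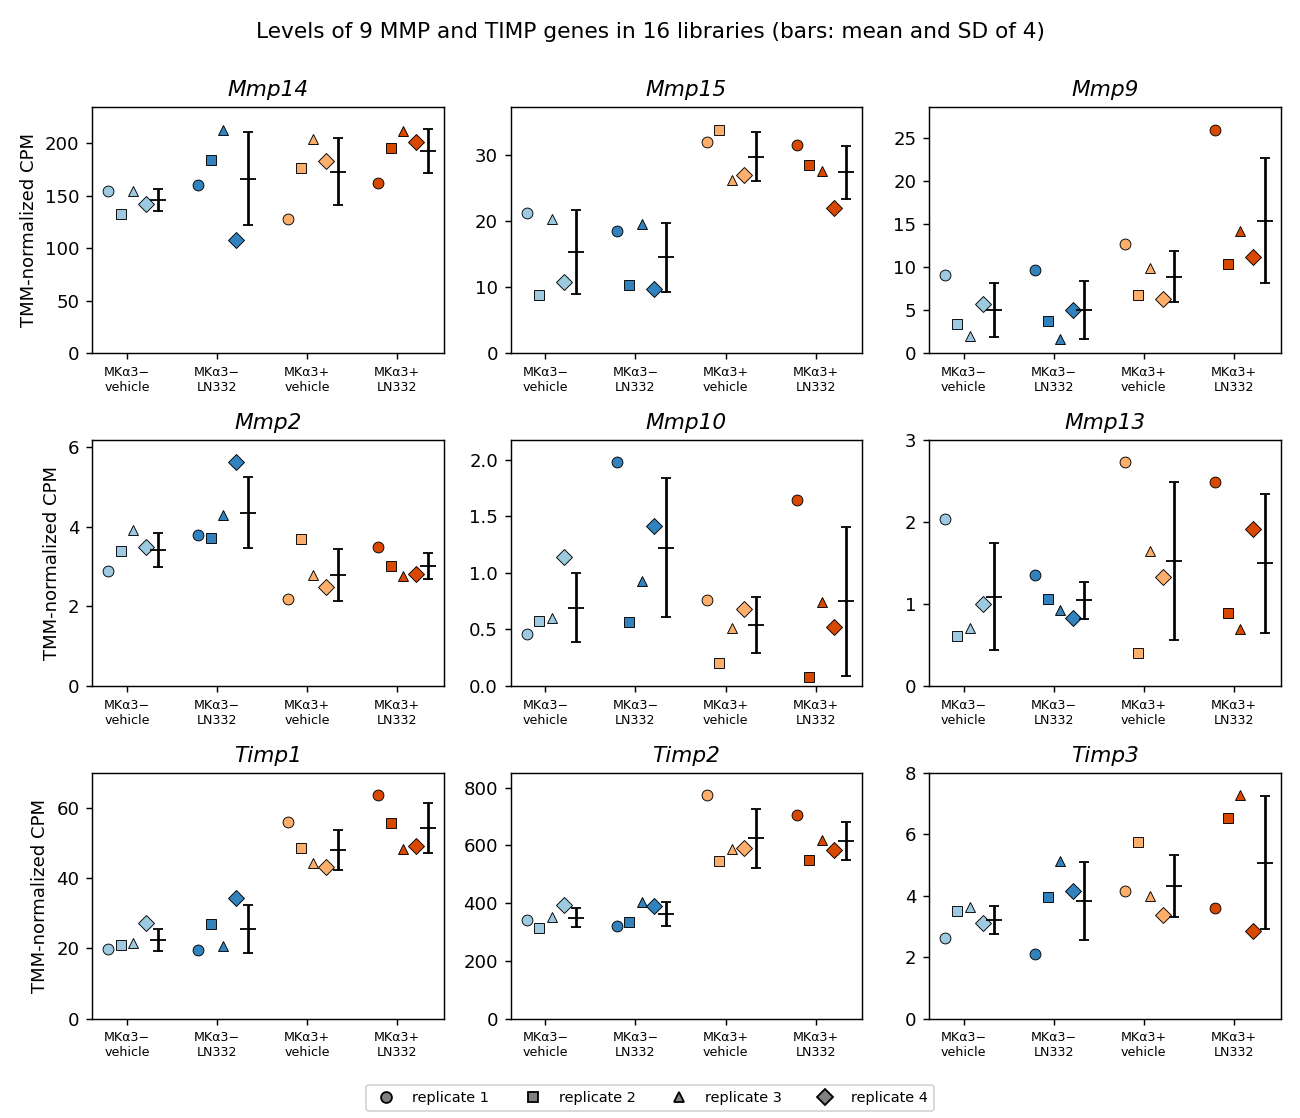
TMM-normalized CPM of the 9 genes in each library, by group and replicate number, with bars for the mean and SD of 4 libraries. *Timp1*, *Timp2* and *Mmp15* separate MKα3+ from MKα3− cells in both treatments, *Mmp9* separates them with LN332 (10.4 to 25.9 against 1.65 to 9.70 CPM), and *Mmp10* and *Mmp13* stay under 3 CPM.

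The other 5 genes did not pass the threshold between the lines. *Mmp2* (Entrez 17390, chr8:92827290-92853421), gelatinase A, had 2.88, 3.39, 3.93 and 3.49 CPM in MKα3− cells and 2.18, 3.69, 2.78 and 2.48 CPM in MKα3+ cells with vehicle. With LN332 it had 3.80, 3.71, 4.31 and 5.62 CPM in MKα3− cells and 3.49, 3.0, 2.76 and 2.81 CPM in MKα3+ cells. The groups with LN332 did not overlap, with MKα3+ cells below, yet the log2FC of -0.50 (SE 0.19, 95% interval -0.90 to -0.10, adjusted p = 0.0543) missed the threshold. With vehicle it was -0.32 (SE 0.20, adjusted p = 0.238). Levels of 3 members with vehicle and 5 with LN332 did not overlap between the lines, beside 32.9% and 26.5% of all genes.

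*Mmp14* (Entrez 17387, chr14:54431598-54442456) encodes MT1-MMP, the collagenase at the cell surface. It ranged from 133.0 to 155 CPM in MKα3− cells and from 128 to 204 CPM in MKα3+ cells with vehicle, and from 108 to 213 and from 162 to 212 CPM with LN332. The groups overlapped in both treatments, and the 95% intervals of the log2FC were -0.14 to 0.59 with vehicle and -0.11 to 0.62 with LN332. The ratio of *Mmp14* to *Timp2*, each per kb, was 0.275 ± 0.0261 in MKα3− cells and 0.187 ± 0.0536 in MKα3+ cells with vehicle (SD, n = 4 each). It lay between 0.237 and 0.296 in the former group and between 0.108 and 0.227 in the latter, without overlap. With LN332 the ranges of 0.181 to 0.360 and 0.151 to 0.232 overlapped. Since *Timp2*, the denominator, was itself higher in MKα3+ cells, this ratio is not a separate result. Its size also depends on the exon length of *Mmp14*, which is uncertain, whereas its order between groups does not. The ratio of *Mmp9* to *Timp1*, each per kb, overlapped between the lines in both treatments, with group means between 0.0459 and 0.0698.

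*Timp3*, whose protein stays bound to the extracellular matrix, was between 2.1 and 7.28 CPM in the 16 libraries. Its log2FC between the lines was 0.40 (SE 0.31, adjusted p = 0.368) with vehicle and 0.36 (SE 0.31, adjusted p = 0.403) with LN332. Its value is uncertain, since 21.3% of its exon length overlaps *Syn3* on the opposite strand and the use of strand in the counting is not given in the sources used here. The stromelysin gene *Mmp10* rested on 2 to 51 counts per library and the collagenase gene *Mmp13* on 10 to 75, so changes in them were hard to detect at this depth. *Mmp10* had 95% intervals of -1.80 to 1.0 with vehicle and -2.42 to 0.24 with LN332, and *Mmp13* of -0.73 to 1.50 and -0.78 to 1.47.

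**Figure D4:**
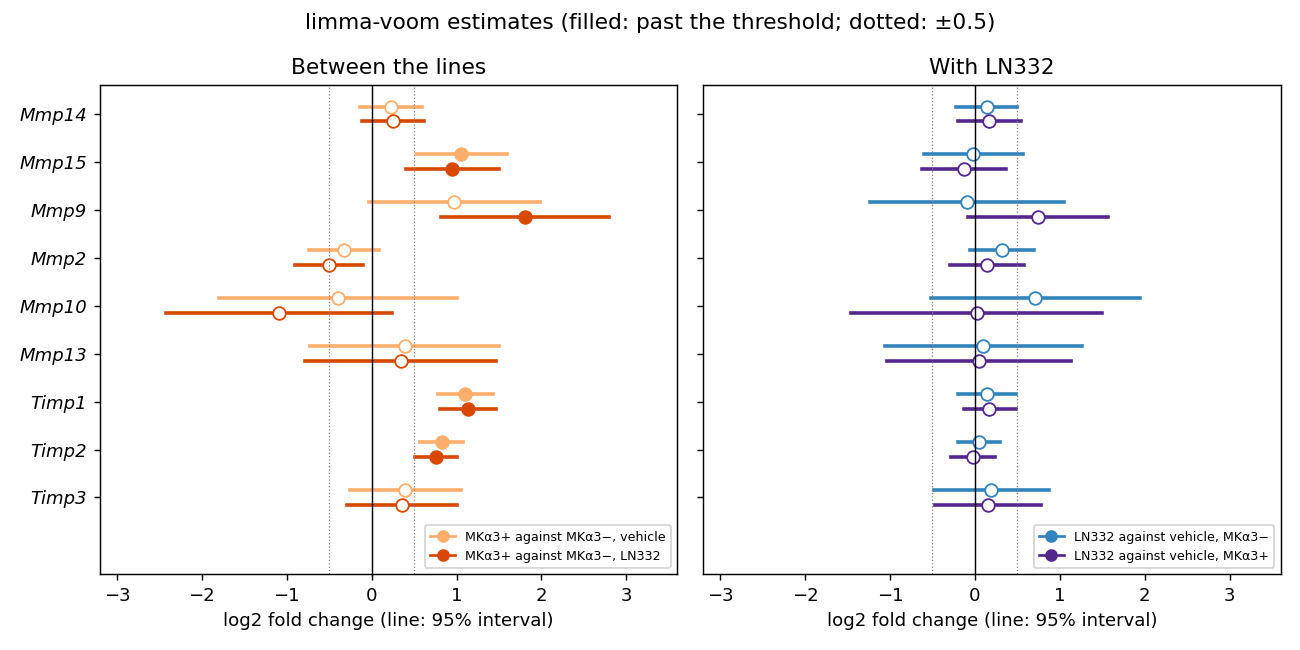
Log2 fold changes from limma-voom with 95% intervals for the 9 genes, between the lines (left) and with LN332 against vehicle (right), with filled points past the threshold and dotted lines at ±0.5. Between the lines *Timp1*, *Timp2* and *Mmp15* are filled in both treatments and *Mmp9* with LN332 (1.81), and no point is filled for the LN332 response.

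The response to LN332 was addressed by comparing LN332 with vehicle within each line, which shares its libraries with the comparisons above. In fits without pairing by replicate number, no member passed the threshold in MKα3+ cells (0 of 9, beside 0.187% of all genes) or in MKα3− cells (0 of 9, beside 0.304% of all genes). This held by limma-voom, edgeR and DESeq2, and 0 members had an unadjusted p under 0.05 in the main limma-voom fit. In MKα3+ cells, limma-voom with sample quality weights gave 1 of 9 members with an unadjusted p under 0.05, beside 3654 of 14474 genes. With only the groups compared it gave 1 of 9, beside 2185 genes. The fit with pairing is given below for *Mmp9*. For 0 members did the levels with and without LN332 separate, beside 9.66% of all genes in MKα3+ cells and 4.95% in MKα3− cells. On average over both lines 0 of 9 members passed, beside 1.35% of all genes, and for the difference between the lines 0 of 9 passed, beside 0% of all genes. The median log2FC of the members was 0.14 in each line, beside -0.01 over all genes.

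*Mmp9* in MKα3+ cells had the largest response of the members in that line. Its level with LN332 was 2.05, 1.54, 1.43 and 1.78 times that with vehicle in replicates 1 to 4, higher in 4 of 4 same-numbered pairs. The log2FC was 0.75 (SE 0.39, 95% interval -0.08 to 1.57, adjusted p = 0.590 by limma-voom). Same-numbered libraries of MKα3+ cells deviated together, and blocking on that number gave a log2FC of 0.82 (limma-voom adjusted p = 0.0495), so that 1 of 9 members passed the threshold, beside 1.51% of all genes in that fit. That block is not a paired test within MKα3+ cells. It gives each replicate number 1 effect shared by all 4 groups, and in the other comparisons the numbers were not taken as paired. In MKα3− cells the levels of *Mmp9* with LN332 (1.65 to 9.70 CPM) and vehicle (1.98 to 9.09 CPM) overlapped, with a log2FC of -0.09 (SE 0.54, 95% interval -1.23 to 1.05). The test of the difference between the lines in this response gave 0.84 (SE 0.67, 95% interval -0.57 to 2.25, limma-voom adjusted p = 0.9999), so the response was not shown to differ between MKα3+ and MKα3− cells. That test had no block. With the block, 1 of 9 members had an unadjusted p under 0.05 for the difference by limma-voom, beside 517 of 14474 genes, and 0 passed the threshold.

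The LN332 response was bounded most closely for *Timp2* and *Timp1*. *Timp1* gave 95% intervals of -0.13 to 0.48 on the log2 scale in MKα3+ cells and -0.20 to 0.49 in MKα3− cells, and *Timp2* of -0.28 to 0.24 and -0.20 to 0.30. *Mmp14* gave -0.20 to 0.54 and -0.22 to 0.50, and *Mmp15* gave -0.62 to 0.37 and -0.60 to 0.57. *Timp3* had wider intervals than the other inhibitors, of -0.47 to 0.78 and -0.48 to 0.87. The intervals of *Mmp10* reached from -1.46 to 1.50 in MKα3+ cells and from -0.52 to 1.94 in MKα3− cells. A change of 2-fold in *Timp1*, *Timp2*, *Mmp14* or *Mmp15*, a log2 value of 1 in either direction, thus lay outside these intervals, whereas one in *Mmp10* did not.

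For each member that differed between the lines with vehicle, the 2 genes with the most similar pattern were found by the Euclidean distance between mean-centred log2 CPM over the 16 libraries, as a description. For *Timp1* these were *Rhou* and *Fam110b*, at distances of 0.65 and 0.67 (median over all genes 2.66). For *Timp2* they were *Eeig2* and *Naxd*, at 0.52 and 0.55 (median 2.06). For *Mmp15* they were *Stox2* and *Acp5*, at 0.96 and 1.04 (median 2.79), so that its nearest genes were less close than those of the inhibitors.

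Of 17 other MMP and TIMP genes, 9 were measured, and 3 were higher and 2 lower in MKα3+ cells under each treatment, with median log2FCs of 0.59 with vehicle and 0.50 with LN332, beside 18.5% and 20.6% of all genes called in either direction. Among those past the threshold, the largest changes with vehicle were in *Mmp25* (log2FC -2.01, SE 0.54, adjusted p = 0.0103), a membrane-anchored MMP known from leukocytes, *Mmp12* (1.97, SE 0.66, adjusted p = 0.0329), the macrophage elastase, and *Mmp24* (1.50, SE 0.36, adjusted p = 0.00466), or MT5-MMP. *Mmp11*, stromelysin-3, was the other higher gene (0.99, SE 0.25, adjusted p = 0.00643), and *Mmp28*, the epilysin of keratinocytes, the other lower gene (-0.90, SE 0.17, adjusted p = 8.42e-04). With LN332 the changes were 2.50 in *Mmp12*, -1.77 in *Mmp25* and 1.74 in *Mmp24* (adjusted p = 0.0135, 0.0280 and 9.92e-04). These genes were low, with *Mmp12* on 0 to 38 counts per library and *Mmp25* on 3 to 53. The exons of *Mmp24* (13.6% of their length), *Mmp28* (12%), *Mmp11* (5.58%) and *Mmp12* (2.17%) overlap genes of the opposite strand, which leaves their values uncertain.

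Some of the macrophage and leukocyte markers moved with some of these genes. *Cd68* showed little difference between the lines, with a log2FC of 0.12 (SE 0.25) with vehicle and -0.10 (SE 0.28) with LN332. All 6 markers of the list were measured, and they summed to between 40.1 and 91.3 CPM in MKα3− cells and between 107 and 378 CPM in MKα3+ cells with vehicle, and to between 39.5 and 105 and between 59.2 and 386 CPM with LN332. With vehicle 3 of 6 were higher in MKα3+ cells past the threshold (*Itgam*, *Lyz2* and *Csf1r*), and with LN332 1 of 6 (*Csf1r*). Of all genes, 10.9% and 11.7% were called higher, so nothing particular to the markers is read from the count with LN332. *Mmp12* was at 1.25, 1.37 and 1.27 CPM in the 3 libraries high in *Adgre1* and between 0 and 0.964 CPM in the other 13. *Mmp8*, the neutrophil collagenase, was at 2.31, 2.01 and 2.73 CPM in these 3 libraries and between 0.0489 and 0.619 CPM in the other 13, and its log2FC with vehicle was 2.06 (SE 0.83, adjusted p = 0.074), short of the threshold. Without the 3 libraries, *Mmp12* with vehicle gave a log2FC of 1.29 (adjusted p = 0.297), short of the threshold. *Mmp25* with vehicle was lower in MKα3+ cells, the opposite direction to the markers called. It gave -1.78 (adjusted p = 0.139) without the 3 libraries, also short of the threshold, beside -2.01 with all libraries. With LN332 and without the 3 libraries, *Mmp12* stayed higher past the threshold and *Mmp25* did not pass it. The calls of *Timp1*, *Timp2*, *Mmp15* and *Mmp9* given above held without these libraries. Leaving them out did not remove the marker difference with vehicle, where *Csf1r*, alone of the 6 markers, stayed higher past the threshold. The exons of *Csf1r* overlap *Hmgxb3* on the opposite strand over 15.1% of their length. Those of *Itgam* overlap *Gm49368* on the same strand over 68.7%, so the values of both markers are uncertain. *Adgre1* with vehicle was at least 7.30 CPM in MKα3+ cells and at most 4.88 CPM in MKα3− cells. The part of other cells in the members and in *Mmp12*, *Mmp8* and *Mmp25* was not tested.

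**Figure D5:**
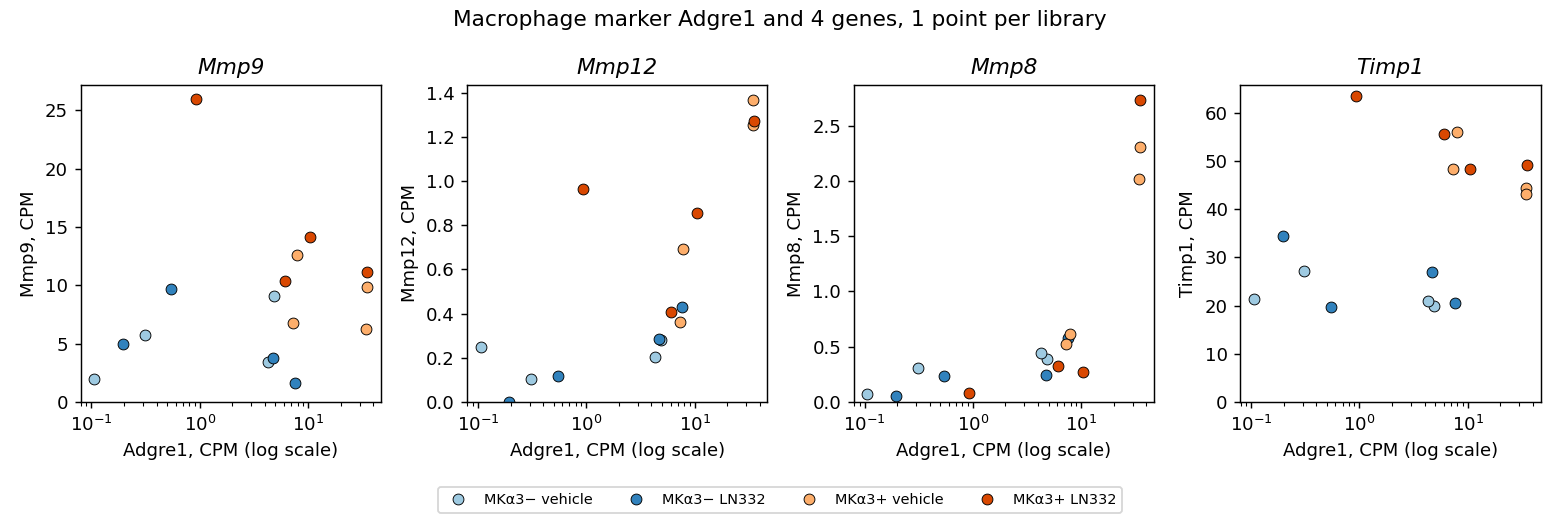
Level in CPM of *Mmp9*, *Mmp12*, *Mmp8* and *Timp1* against that of the macrophage marker *Adgre1* (log axis) in the 16 libraries, coloured by group. The 3 libraries above 30 CPM of *Adgre1* hold the highest *Mmp8* and *Mmp12* levels, whereas the highest *Mmp9* and *Timp1* levels are in a library with *Adgre1* at 0.924 CPM.

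Of 20 measured genes for MMP activation and cell-surface regulation, 4 were higher and 2 lower in MKα3+ cells with vehicle, and 3 were higher and 1 lower with LN332, beside 18.5% and 20.6% of all genes called in either direction. The share with LN332 was near that of all genes. Changes with vehicle were found in *Thbs2* (log2FC -3.61, SE 0.58, adjusted p = 1.59e-04) and *Thbs1* (1.88, SE 0.26, adjusted p = 4.2e-05), which encode thrombospondins, matricellular proteins that bind MMPs. With LN332 they were found in *Thbs2* (-3.64), *Thbs1* (1.95) and *Plau* (1.81, SE 0.24, adjusted p = 1.7e-05), the urokinase that makes plasmin, an activator of proMMPs. The median log2FC of the list was 0.03 and 0.14. In this list *Serpinb2*, an inhibitor of urokinase, was the gene past the threshold with LN332 against vehicle, by 1.08 in MKα3+ cells (SE 0.17, adjusted p = 0.0262) and 0.99 in MKα3− cells (SE 0.16, adjusted p = 0.0269). Without the 3 libraries high in *Adgre1* these calls of *Serpinb2* were lost, with log2FCs of 1.23 (adjusted p = 0.350) and 0.99 (adjusted p = 0.0888). All 3 libraries are of MKα3+ cells, so the MKα3− comparison lost none of its own. In that fit 0 of all genes passed for LN332 in MKα3+ cells and 1 in MKα3− cells. Between the lines, 5 genes of the list were then higher with LN332, and the 4 and 2 calls with vehicle stood. The exons of *Serpinb2* overlap *Serpinb10* over 12.4% of their length.

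Among 14 measured ADAM, ADAMTS and astacin proteases, relatives of the MMPs in the metzincin clan, 6 were higher in MKα3+ cells with vehicle and 7 with LN332, and 0 were lower by limma-voom, with median log2FCs of 0.29 and 0.61, beside 10.9% and 11.7% of all genes called higher. *Adamts1* (log2FC 4.21, SE 0.54, adjusted p = 1.60e-05), *Adamts10* (2.77, SE 0.16, adjusted p = 1.80e-09) and *Adamts4* (1.93, SE 0.24, adjusted p = 9.78e-06) changed most with vehicle. *Adamts1* and *Adamts4* encode proteases of aggrecan and versican, and *Adamts10* a protease associated with fibrillin microfibrils. *Adamts1* was between 2.07 and 4.11 CPM in MKα3− cells and between 24.2 and 91.2 CPM in MKα3+ cells with vehicle. With LN332 the same 3 genes led, by 4.66, 2.91 and 2.31. Without the 3 libraries high in *Adgre1*, 4 and 6 of the 14 genes were higher. In that fit 1226 and 1457 of all genes were called higher, beside 1582 and 1696 with all libraries.

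Of 21 measured substrate genes of the matrix and cell surface, 5 were higher and 1 lower in MKα3+ cells with vehicle, and 6 were higher and 1 lower with LN332, beside 18.5% and 20.6% of all genes called in either direction. *Fn1*, which encodes fibronectin, was higher by a log2FC of 2.19 (SE 0.32, adjusted p = 6.24e-05) with vehicle, and the type IV collagen genes *Col4a1* and *Col4a2* were higher by 1.52 (SE 0.14) and 0.99 (SE 0.18). The median log2FC of the list was 0.20 with vehicle and 0.40 with LN332. With LN332 the same 3 genes changed most, by 2.30, 1.79 and 1.38. Without the 3 libraries high in *Adgre1*, these 3 genes stayed past the threshold in both treatments. No substrate gene passed the threshold for LN332 against vehicle in either line by limma-voom.

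Of 16 genes for AP-1 and ETS factors and their partners, 2 were higher and 2 lower in MKα3+ cells with vehicle, and 2 were higher and 3 lower with LN332, beside 18.5% and 20.6% of all genes called, so that nothing particular to this list is read from its counts. With vehicle these changes were led by *Fos* (log2FC 1.30, SE 0.41, adjusted p = 0.0236), *Elf3* (-0.77, SE 0.22, adjusted p = 0.0125) and *Jund* (0.72, SE 0.17, adjusted p = 0.00415), and *Jund* is uncertain since 52.6% of its exon length overlaps an antisense gene. With LN332 they were led by *Etv5* (0.88, SE 0.13, adjusted p = 5.6e-05), *Elf3* (-0.82, SE 0.22) and *Ehf* (-0.59, SE 0.10). The median log2FC of the list was 0.25 and 0.13. Without the 3 libraries high in *Adgre1*, *Elf3* with vehicle missed the threshold (-0.61, adjusted p = 0.173), and *Fos*, *Jund*, *Etv5* and *Ehf* passed it in the treatments named. *Atf3* was higher with LN332 on average over both lines, by 0.53 (SE 0.14, adjusted p = 0.0389), and not without these libraries (0.47, adjusted p = 0.264). *Mmp10* and *Mmp13*, whose windows hold the AP-1 motif, did not pass the threshold in these comparisons, with the wide intervals given above.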

How the data were processed

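RNA was sequenced from 4 groups of 4 libraries; whether these came from separate cultures is not given in the sources used here, so p-values measure the spread between these libraries. The authors aligned reads to mm10 (Rsubread) and deposited raw featureCounts counts per Entrez gene. Every deposited gene exceeded 0.5 CPM in at least 6 libraries, so the filter of 0.5 CPM in 3 libraries removed 0 genes. No 2 replicates agreed within sampling noise, with chi-square values of at least 5.43 per degree of freedom. From the counts, TMM factors (edgeR 4.0.16) and a limma-voom fit over all 16 libraries with 1 coefficient per group (limma 3.58.1, R 4.3.3) gave each contrast, and the procedure was checked on simulated data. Adjusted p-values are from limma-voom unless another tool is named. edgeR, DESeq2 1.42.0, other scaling, filters, weights, thresholds and left-out libraries were the alternatives. Same-numbered libraries are taken as paired where all 4 correlations of their deviations from group means exceeded 0.1, which held for LN332 in MKα3+ cells (0.62, 0.47, 0.20 and 0.58). The main fit has no such pairing, and the fit with a block gives each replicate number 1 effect shared by all 4 groups. CPM per kb divides TMM-normalized CPM by the union of GENCODE exons, which can differ from the exons in which reads were counted. The members and gene lists were chosen with earlier results of these data known. Named are all members, up to 3 genes per list and contrast by absolute log2 fold change, and the 2 nearest genes of each member that differed with vehicle. *Mmp8*, *Mmp11*, *Mmp28* and the leukocyte markers were named after their values were seen. The values of 1 gene that this rule names are not reported here.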

Additional observations from a re-analysis of the deposited data

How the results depend on the processing

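The member calls between the lines were recomputed under 12 alternatives and without each of the 16 libraries. *Timp1* passed the threshold in both treatments in all of them, by 1.03 to 1.20 with vehicle and 1.03 to 1.27 with LN332 when 1 library was left out. So did *Mmp9* with LN332 (1.34 to 2.24). A minimum absolute log2FC of 1 left 2 members with LN332, losing *Timp2* (0.76) and *Mmp15* (0.95), and lost *Timp2* with vehicle (0.83). *Mmp9* with vehicle passed with sample quality weights (1.12, adjusted p = 0.0229). *Mmp2* with LN332 passed with DESeq2 (-0.53), with library size alone (-0.52), and without replicate 1 or 2 of MKα3− or replicate 1 of MKα3+ cells with LN332 (-0.55, -0.57 and -0.57), so that 4 to 5 members passed when 1 library was left out.

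With the replicate number as a block, 1 member, *Mmp9* (0.82), passed for LN332 in MKα3+ cells. In the other comparisons same-numbered libraries were not taken as paired, since at least 1 correlation was under 0.1 in each. They were 0.27, 0.26, 0.09 and 0.11 between the lines with vehicle, 0.56, 0.36, 0.27 and -0.05 with LN332, and 0.19, 0.51, 0.30 and -0.01 for LN332 in MKα3− cells. There the block added *Mmp9* between the lines with vehicle (0.80, adjusted p = 0.0175) and *Mmp2* with LN332 (-0.51, adjusted p = 0.0452), and gave *Mmp13* -0.05 in MKα3− cells.

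Responses to LN332 near 0 turned direction, none of them past the threshold. In MKα3+ cells *Mmp13* (0.05) gave -0.03 with edgeR, DESeq2 and library size alone and -0.06 with quality weights, *Mmp10* (0.02) gave -0.06 with library size alone and -0.23 with quality weights, and *Timp2* (-0.02) gave 0.02 with quality weights. In MKα3− cells *Mmp13* (0.10) gave -0.05 with edgeR and -0.06 with DESeq2, and *Timp2* (0.05) gave -0.03 with library size alone. Leaving out 1 library gave -0.53 to 0.78 for *Mmp10*, -0.46 to 0.43 for *Mmp13*, -0.06 to 0.40 for *Timp3* and -0.08 to 0.09 for *Timp2* in MKα3+ cells. In MKα3− cells it gave -0.52 to 0.38 for *Mmp9*, -0.12 to 0.45 for *Mmp13*, -0.25 to 0.18 for *Mmp15*, 0.00 to 0.24 for *Timp1* and 0.00 to 0.11 for *Timp2*. The cause of these changes was not tested.

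Over all genes, a minimum log2FC of 1 or none gave 1362 and 4115 calls between the lines with vehicle (2676 as reported) and 1345 and 4654 with LN332 (2987). Calls for LN332 in MKα3+ cells (27) were 4 with edgeR, 118 with DESeq2, 3 with library size alone, 218 with the block, 454 with quality weights, 107 with only these groups, 5 at a minimum log2FC of 1, 0 without the 3 libraries high in *Adgre1* (624 at an unadjusted p under 0.05 in limma-voom) and 0 to 47 without 1 library. In MKα3− cells (44, of which 35 higher) they were 158 with DESeq2, 74 with library size alone (24 higher), 259 with the block, 123 with quality weights, 1 with only these groups, 6 at a minimum of 1, 1 without the 3 libraries and 1 to 150 without 1 library. On average over both lines (196, 133 higher) they were 258 with library size alone (84 higher), 363 with the block, 464 with quality weights, 13 at a minimum of 1, 637 with no minimum, 28 without the 3 libraries and 114 to 321 without 1 library. For the difference between the lines they were 0 with limma-voom, edgeR and DESeq2 (164, 168 and 207 at an unadjusted p under 0.05). *Mmp10*, with as few as 2 counts, was not tested where at least 10 counts were required in every library. With only the groups compared, the average and the difference could not be fitted, since they need all 4. The alternative without 3 libraries was chosen after seeing the data.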
